A study of Drosophila melanogaster with 2 samples.

Results

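Nuclear transfer RNA (tRNA) genes were examined for sites recovered by anti-GFP chromatin immunoprecipitation and sequencing (ChIP-seq) in Drosophila melanogaster. Members were the Ensembl genes of biotype tRNA on the 6 main chromosome arms whose symbol starts with tRNA:, which gave 290 of 18164 annotated genes. The material was whole prepupae aged 1 day, as 2 biological replicates of 1 group. The flies were transgenic and carried CG11294 fused to eGFP, a green fluorescent protein tag, and both replicates carried it. CG11294 is annotated as a paired-like homeodomain protein. The antibody label named CG11294 and the description named anti-GFP, and the description was followed here. No control immunoprecipitation, input or untagged line was analysed here, so recovery that needed no tagged protein cannot be told apart from recovery through it. Whole animals mix all tissues, and a site used in few cells cannot be told apart from a weak site used in many.

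tRNA genes are transcribed by RNA polymerase III. Their promoter lies inside the gene, in the A box and the B box, which TFIIIC binds and which in turn places TFIIIB just upstream of the start. Many are multicopy and stand in clusters, often in introns of protein-coding genes, and copies that read the same codon can be identical in sequence. Homeodomain proteins act mainly at genes of RNA polymerase II, with TAAT-type core sites. Below, a gene is bound when a summit, the highest point of a peak, lay within 1000 bp of an annotated start site (TSS). For a tRNA gene that site is its annotated 5′ end. Positions are relative to it, with negative values upstream.

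The 5 bound tRNA genes that had no identical copy are shown first, because the full sequence of each belongs to 1 tRNA gene only. They are on the gene strand, 5′ to 3′, read from the RefSeq copy of the Release 6 (dm6) genome. Capitals mark matches to looser forms of the A box and the B box, which are spelled out with the sequence results.
tRNA:Tyr-GTA-1-8 gene (chr3R:8669081-8669174, minus strand): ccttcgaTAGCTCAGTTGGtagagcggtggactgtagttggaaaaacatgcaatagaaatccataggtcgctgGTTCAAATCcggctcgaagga
tRNA:Tyr-GTA-1-7 gene (chr3R:8668612-8668705, minus strand): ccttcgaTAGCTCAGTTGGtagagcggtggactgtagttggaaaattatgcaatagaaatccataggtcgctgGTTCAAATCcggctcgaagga
tRNA:Lys-TTT-1-1 gene (chr2L:8290727-8290799, plus strand): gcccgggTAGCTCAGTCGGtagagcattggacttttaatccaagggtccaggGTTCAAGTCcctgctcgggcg
tRNA:Leu-TAA-2-1 gene (chr3R:24112964-24113047, plus strand): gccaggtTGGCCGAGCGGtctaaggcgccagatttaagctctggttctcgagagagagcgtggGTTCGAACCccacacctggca
tRNA:Gln-TTG-2-1 gene (chrX:3427452-3427523, minus strand): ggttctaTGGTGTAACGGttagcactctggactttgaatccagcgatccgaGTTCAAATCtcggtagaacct
The Tyr-GTA-1-8 and Tyr-GTA-1-7 genes, both 94 bp long, shared the strongest peak and differed at 2 positions, both in the intron. The Lys-TTT-1-1, Leu-TAA-2-1 and Gln-TTG-2-1 genes each lay beside a peak of their own.

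The sequence recovered beside bound tRNA genes, with or without identical copies, is shown as 201 bases centred on the summit. It is on the strand of the nearest tRNA gene, from the same genome. The windows were chosen for the strongest peak and as examples of peaks that held a homeodomain core or the word CACTG. Capitals mark TAATTA and CACTG on either strand.
tRNA:Tyr-GTA-1-8 summit window (chr3R:8669289-8669489, minus strand): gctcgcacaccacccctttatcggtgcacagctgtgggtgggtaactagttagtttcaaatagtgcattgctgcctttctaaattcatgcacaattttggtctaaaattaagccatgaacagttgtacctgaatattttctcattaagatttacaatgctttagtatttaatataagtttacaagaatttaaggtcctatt
tRNA:Lys-TTT-1-1 summit window (chr2L:8290913-8291113, plus strand): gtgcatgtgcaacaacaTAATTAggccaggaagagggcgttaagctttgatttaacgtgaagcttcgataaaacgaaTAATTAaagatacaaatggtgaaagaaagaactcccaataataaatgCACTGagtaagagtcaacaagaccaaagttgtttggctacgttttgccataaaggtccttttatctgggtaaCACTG
tRNA:Gln-TTG-2-1 summit window (chrX:3427642-3427842, minus strand): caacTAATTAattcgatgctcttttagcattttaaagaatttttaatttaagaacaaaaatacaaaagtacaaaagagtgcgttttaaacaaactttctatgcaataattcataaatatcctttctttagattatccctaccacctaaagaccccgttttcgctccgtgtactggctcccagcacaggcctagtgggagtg
tRNA:Val-CAC-2-5 summit window (chr3R:19671755-19671955, minus strand): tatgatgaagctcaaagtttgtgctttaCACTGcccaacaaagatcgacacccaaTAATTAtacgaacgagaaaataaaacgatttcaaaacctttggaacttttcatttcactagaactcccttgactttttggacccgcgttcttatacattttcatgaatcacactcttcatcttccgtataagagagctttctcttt
tRNA:Glu-CTC-3-1 summit window (chr3L:1378948-1379148, plus strand): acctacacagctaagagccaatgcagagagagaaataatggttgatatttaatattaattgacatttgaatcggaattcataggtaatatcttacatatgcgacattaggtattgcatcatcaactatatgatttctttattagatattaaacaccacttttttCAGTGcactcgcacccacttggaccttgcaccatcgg
The first of these windows, at the strongest peak, held neither word. The Lys-TTT-1-1 window held both words, with 4 matches in all.

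The deposited data were lists of peaks on dm6. The conservative list kept peaks whose ranks agreed across the replicates by their irreproducible discovery rate (IDR), and held 3261 peaks with a median signal of 110. The pooled list held 4330, the thresholded list of replicate 1 held 3229 and that of replicate 2 held 2709. The relaxed lists behind them held 97942 peaks between the replicates, 66090 in replicate 1 and 89686 in replicate 2. The signal is the authors' value for each peak. Its scale and the read depth were not stated, so signals are compared only within a list. With 1 group and 2 replicates no test between conditions was possible, and the shares below carry 95% Wilson intervals that cover counting error over genes or peaks only.

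Of the 290 tRNA genes, 14 were bound in the conservative list (4.83%, interval 2.90% to 7.94%), against 10.6% of all genes (1934 of 18164). The 14 genes shared 12 distinct peaks, since 3 peaks lay near a pair of tRNA genes and 1 gene had a pair of peaks. The tRNA interval lay below that of all genes (10.2% to 11.1%) and of protein-coding genes (11.8%, interval 11.3% to 12.4%). It treats each tRNA gene as separate, although neighbouring genes can share a peak. A gene with several TSSs has several windows. Among genes with one TSS 7.76% were bound, and among protein-coding genes with one TSS 8.23% (interval 7.71% to 8.78%), and that interval overlapped the tRNA interval. The share of all bases on the arms that lay within 1000 bp of a conservative summit was 4.31%, inside the tRNA interval. The bound share of tRNA genes was therefore near that of the genome at large.

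Other classes of small noncoding RNA genes were read in the same way. The 5S ribosomal RNA genes, also transcribed by RNA polymerase III, had 0 bound of 96 (interval up to 3.85%), and they stand in a repeated array. The 3 U6 small nuclear RNA (snRNA) genes, another polymerase III class, had 0 bound. Of all 32 snRNA genes 1 was bound. Small nucleolar RNA (snoRNA) genes, often hosted in introns, had 21 bound of 269 (7.81%), and microRNA precursor genes had 11 of 260 (4.23%). None of 5 tRNA pseudogenes was bound. The intervals of all these classes overlapped that of tRNA genes.

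**Figure D1:**
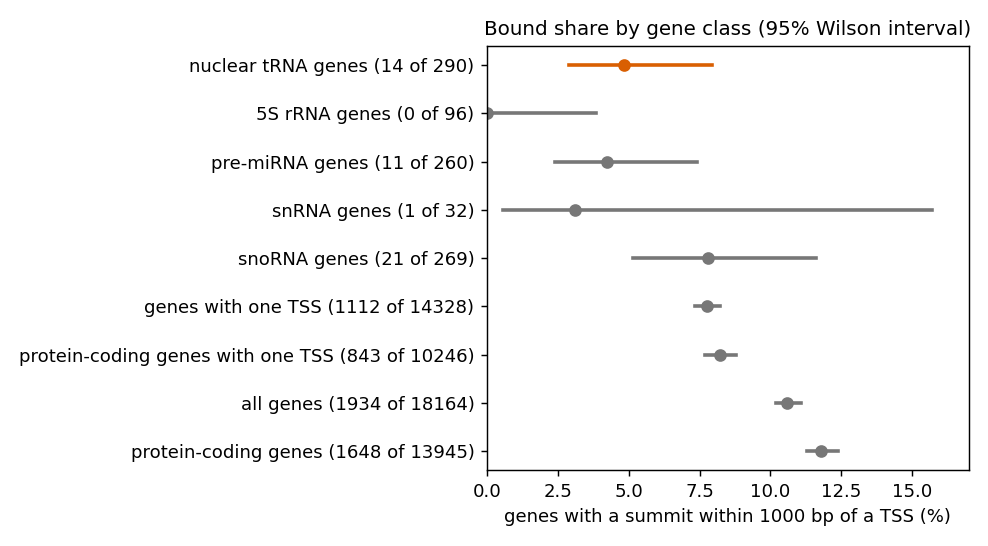
Share of genes with a conservative summit within 1000 bp of a TSS (%, horizontal axis) for nuclear tRNA genes (orange) and other gene classes (grey), with bars for the 95% Wilson interval. The tRNA share (4.83%) lay below all genes (10.6%) and beside microRNA precursors (4.23%).

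As a ratio, the gap between tRNA genes and other genes was widest close to the TSS. Within 250 bp, 5 tRNA genes (1.72%, interval 0.739% to 3.97%) had a summit, against 5.85% of all genes, 5.14% of one-TSS coding genes and 1.18% of arm bases. Within 500 bp the tRNA count was 8 (2.76%, interval 1.40% to 5.35%), against 8.06% of all genes and 6.66% of one-TSS coding genes. Within 2000 bp it was 31 (10.7%), against 14.5% and 11.6%, and within 5000 bp it was 61 (21.0%), against 25.4% and 22.6%. The tRNA interval overlapped the one-TSS coding share at 2000 bp and 5000 bp and lay below it at 250 bp, 500 bp and 1000 bp, where that share was 8.23%. The nearest summit lay at a median of 15415 bp from tRNA genes, against 15060 bp from all genes.

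**Figure D2:**
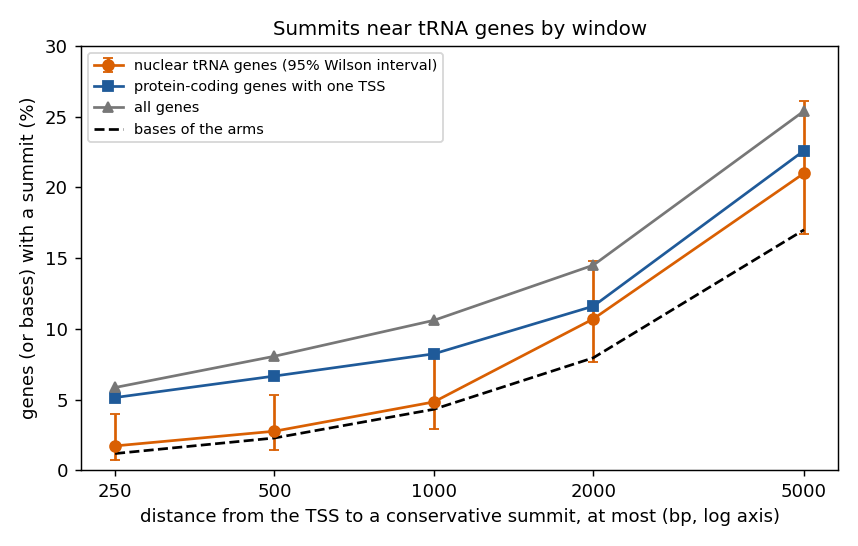
Share of genes or arm bases with a conservative summit (%) against the largest distance allowed from the TSS (bp, log axis). tRNA genes (orange, with 95% Wilson intervals) followed the share of arm bases (dashed) up to 1000 bp, while coding genes with one TSS (blue) and all genes (grey) stood higher.

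The edge of the 1000 bp window cut through groups of neighbouring genes. Just inside it were Ala-AGC-2-1 at 751 bp, Val-TAC-1-1 at 846 bp, His-GTG-1-2 at 883 bp, Glu-CTC-3-1 at 886 bp and Ile-AAT-1-3 at 943 bp. Just outside were Met-CAT-1-2 at 1061 bp, Gln-CTG-1-1 at 1152 bp, Tyr-GTA-1-6 at 1181 bp, Glu-CTC-3-2 at 1190 bp and His-GTG-1-1 at 1191 bp. The summits nearest to Tyr-GTA-1-6, Glu-CTC-3-2 and His-GTG-1-1 were the same ones that made a neighbour of each count as bound.

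The strongest site beside a tRNA gene was upstream of a pair of tyrosine tRNA genes on 3R. Its peak covered chr3R:8669256-8669468, with a conservative signal of 318 at rank 270, and its own signal was 142 in replicate 1 and 168 in replicate 2. All these values lay above the median of their list, which was 63.1 in replicate 1 and 62.4 in replicate 2. The summit stood at -215 bp from Tyr-GTA-1-8 and at -684 bp from Tyr-GTA-1-7, in introns of p, the pink eye colour gene, and of CG8036, annotated as a transketolase gene. It also stood at -229 bp from a TSS of CG8036, so the tRNA gene and the coding promoter were about equally near. Replicate summits fell 7 bp and 1 bp from it. A second peak, at chr3R:8669955-8670294 with a signal of 81.5, stood at -951 bp from Tyr-GTA-1-8 and at 507 bp from a TSS of CG8036. It was in the thresholded list of replicate 1 (45.9) and only in the relaxed list of replicate 2 (35.5).

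For 4 of the 12 peaks a tRNA TSS was the nearest TSS of any gene and no coding TSS lay within 1000 bp. The Glu-CTC-3-1 peak at chr3L:1378986-1379133 had a conservative signal of 165, with 90.0 in replicate 1 and 70.2 in replicate 2. Its summit stood at -886 bp, in introns of Ptp61F, a protein tyrosine phosphatase gene, and of ru, a rhomboid protease gene, and 8420 bp from the nearest coding TSS. The Lys-TTT-1-1 peak at chr2L:8290976-8291079 had a signal of 128, with 49.8 in replicate 1 and 76.9 in replicate 2. This was the closest to a tRNA gene on its downstream side, at 286 bp, inside an intron of Btk, a tyrosine kinase gene, whose TSS was 6111 bp away. The Gln-TTG-2-1 peak at chrX:3427572-3427911 was weaker, at 82.3, with 35.3 in replicate 1 and 47.3 in replicate 2. It stood at -219 bp in an intron of CG12535, and the nearest coding TSS, of CG14269, was 8065 bp away. The Ala-AGC-2-1 peak at chr3L:8027697-8028036, in an intron of the kinase gene nmo, had a signal of 79.3 and stood at 751 bp. It had no counterpart in the relaxed list of replicate 1 and a relaxed signal of 33.5 in replicate 2. The first 3 of these sites were in the thresholded lists of both replicates, and the last was in neither.

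The other 6 peaks had a coding TSS within 1000 bp as well. The Val-TAC-1-1 peak at chr3L:5355449-5355616 had a signal of 215, with 102 in replicate 1 and 119 in replicate 2. Its summit stood at -846 bp from the tRNA gene and only -151 bp from the shared start of CG46456 and lama, so the coding TSS was much nearer. The Leu-TAA-2-1 peak at chr3R:24112563-24112902 (114, with 52.5 and 57.3 in replicates 1 and 2) was intergenic, at -231 bp from the tRNA gene and -344 bp from CG13605. The peak at chr2R:18639222-18639561 (80.2) lay between coding gene CG30122, at -122 bp, and Trp-CCA-2-2, at -165 bp, with Gly-GCC-1-9 at 404 bp. It was thresholded in replicate 2 (37.7) and only relaxed in replicate 1 (40.6). The histidine peak at chr2R:12335018-12335357 (79.1) stood at -122 bp from His-GTG-1-3, -883 bp from His-GTG-1-2 and -128 bp from CG8490. It was relaxed only in both replicates, at 36.4 in replicate 1 and 35.9 in replicate 2. The Val-CAC-2-5 peak at chr3R:19671685-19672024 (75.9) stood at 494 bp from the tRNA gene and 405 bp from the TSS of Naam, a nicotinamidase gene, with a relaxed 29.5 in replicate 1 and a thresholded 47.4 in replicate 2.

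The last peak differed from the rest. It lay at chr2R:13429242-13429581 with a signal of 9.08, at rank 3183 of the conservative list, 943 bp from Ile-AAT-1-3 and 483 bp from the TSS of ATP8A, a phospholipid flippase gene. A stronger peak of the other lists overlapped it, with signals of 78.9 in replicate 1, 45.6 in replicate 2 and 127 in the pooled list. The summits of those peaks were 145 bp, 199 bp and 202 bp away, beyond 1000 bp from the tRNA TSS. Ile-AAT-1-3 was therefore bound in the conservative list alone.

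**Figure D3:**
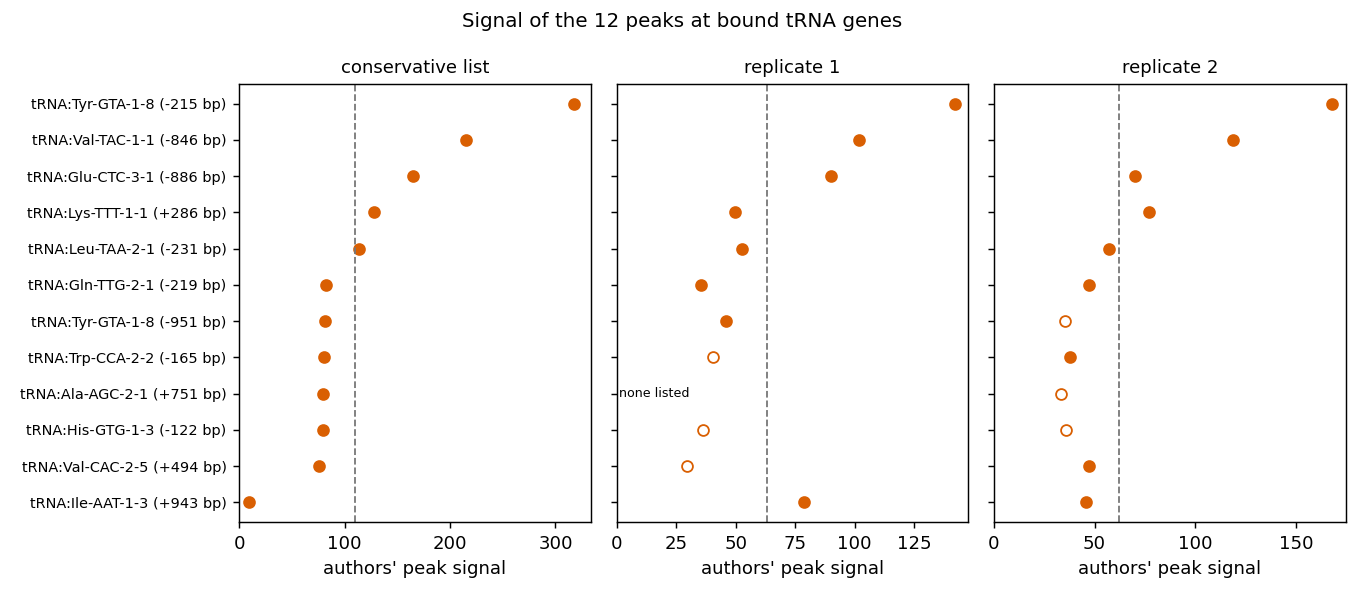
The authors' signal of the 12 peaks at bound tRNA genes in the conservative list, in replicate 1 and in replicate 2, with the position of each summit from its nearest tRNA TSS in the row label. Filled points are thresholded peaks, open points are relaxed peaks only, and the dashed line is the median of that thresholded list (110, 63.1 and 62.4). The Ile-AAT-1-3 replicate points are those of the overlapping stronger peak.

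Across the 12 peaks the median signal was 81.9, against 110 for the whole list, and 5 lay above that median. In all, 7 peaks overlapped a thresholded peak of both replicates, with summits within 100 bp for 6 of them, and 2 overlapped one of neither replicate. Over the whole list 54.8% overlapped both. Summits stood 122 bp to 951 bp from the nearest tRNA TSS, with a median of 390 bp, 8 upstream and 4 downstream of the gene. None lay inside a tRNA gene. By position, 9 were intronic, 3 intergenic and 0 exonic, and 7 had a tRNA TSS as the nearest TSS of any gene.

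The replicates' own lists gave smaller sets. Replicate 1 had 10 bound tRNA genes (3.45%, against 11.9% of all genes), replicate 2 had 12 (4.14%, against 9.34%) and the pooled list had 13 (4.48%, against 14.1%). All 4 lists shared 7 genes, namely Tyr-GTA-1-7, Tyr-GTA-1-8, Val-TAC-1-1, Glu-CTC-3-1, Lys-TTT-1-1, Leu-TAA-2-1 and Gln-TTG-2-1. The 7 genes made up 70.0% of those bound in replicate 1 and 58.3% of those bound in replicate 2, against 57.4% and 72.8% over all bound genes. In total 19 tRNA genes were bound in at least 1 list and 271 in none.

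A further 5 tRNA genes were bound in 1 replicate's list but not in the conservative list, through 4 peaks. In replicate 1 they were a peak past the 3′ end of Asp-GTC-1-5 (signal 41.4, at 283 bp from its start), which also stood at -421 bp from Asp-GTC-1-4, and one at 702 bp from Pro-AGG-1-7 (33.6). In replicate 2 they were a peak at 270 bp from Phe-GAA-1-2 (44.2) and one at 33 bp from the start of Pro-TGG-1-5 (28.0). The Pro-TGG-1-5 summit was the only thresholded summit of the 4 lists that fell inside a tRNA gene. All 4 peaks lay below the median signal of their list. The conservative list held 70.0% of the tRNA genes bound in replicate 1, against 75.5% of all genes bound there. For replicate 2 it held 83.3%, against 80.1%.

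Because the polymerase III promoter is inside the gene, a narrower window was also read, from 200 bp before each gene to 200 bp past its end. It held a conservative summit at 2 tRNA genes (0.690%), Trp-CCA-2-2 and His-GTG-1-3. Replicate 1 had 0 such genes and replicate 2 had 3. In a window of 200 bp on either side of any of their TSSs, 6.06% of coding genes had a conservative summit, with 7.09% in replicate 1 and 5.42% in replicate 2.

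The relaxed lists showed how the replicates differed at the genes themselves. Within 1000 bp of the TSS, 172 tRNA genes (59.3%) had a relaxed peak of the list between replicates, against 71.2% of all genes and 62.2% of arm bases. Replicate 1 alone had 135 (46.6%, against 61.9%) and replicate 2 had 227 (78.3%, against 80.7%). Genes with one TSS had 58.9% in replicate 1 and 78.0% in replicate 2, and arm bases 57.1% and 63.9%. In the gene window with 200 bp on either side, replicate 1 had relaxed summits at 30 tRNA genes (10.3%) and replicate 2 at 106 (36.6%). Coding genes had 28.2% in replicate 1 and 44.8% in replicate 2 within 200 bp of any TSS. Both replicates were lower at tRNA genes, and replicate 1 was lower by more. A coding gene with several TSSs has several windows, and the part of this in the gap was not tested. Relaxed summits lay inside 4 tRNA genes in replicate 1 and inside 27 in replicate 2.

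These relaxed peaks were of ordinary strength. In replicate 1 the 28 peaks near gene bodies had a median signal of 11.5, against 11.0 for the list, and in replicate 2 the 98 peaks had 13.8, against 12.3. In replicate 1, 16 of the 28 ranked above the middle of the list, and in replicate 2, 55 of the 98 did. Along the tRNA loci, replicate 1 had 3.10 relaxed summits per 100 genes in the 200 bp from the gene start onward, which run past the gene end, 5.52 in the 200 bp before the start and 11.0 at the far upstream end of the window. Replicate 2 had 15.5, 18.3 and 14.8 in the same bins. The lowest bin of replicate 1 was thus the one that starts at the gene, and in replicate 2 the bins differed less.

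Identical copies limit what short reads can show inside the genes. Over the gene and 200 bp on either side, 87.4% of 36-base words of tRNA genes occurred once in the genome, against 97.5% in a window of the same kind at coding genes. It was 89.4% at bound and 87.3% at other tRNA genes. Inside the gene the mean was 11.5%, and 238 of 290 genes had no unique 36-base word at all. By position the share was 78.1% in the 200 bp from the gene start onward, gene and flank together, against 95.4% in the 200 bp before the start. How the authors placed reads that match several sites was not stated, and the part of this in the low counts at gene bodies was not tested.

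**Figure D4:**
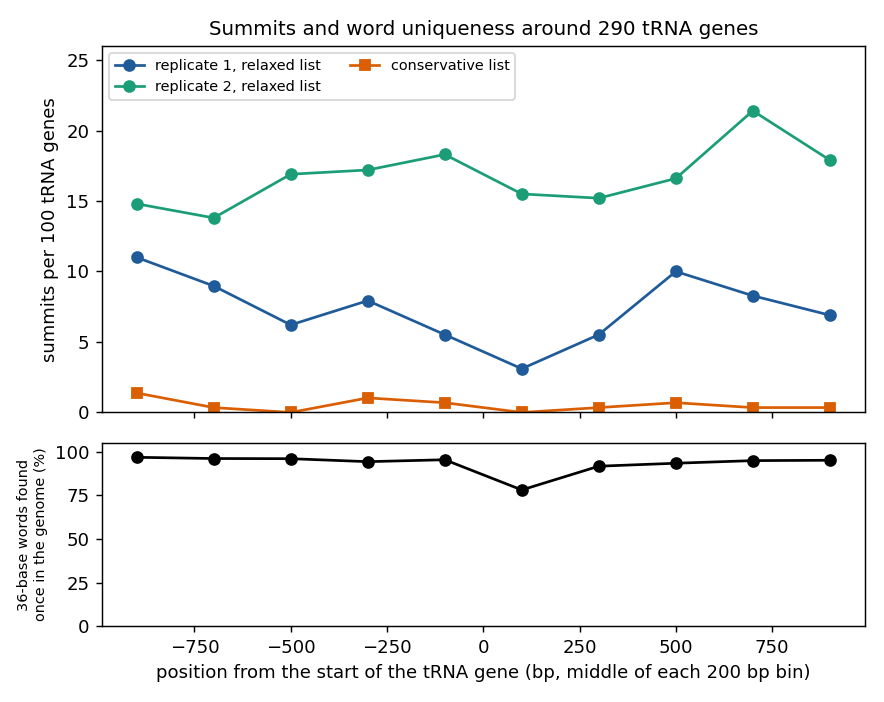
Upper panel, summits per 100 tRNA genes in bins of 200 bp around the start of the 290 genes, for the relaxed lists of replicate 1 (blue) and replicate 2 (green) and the conservative list (orange). Lower panel, the share of 36-base words found once in the genome in the same bins; it fell to 78.1% in the bin that starts at the gene, where replicate 1 had 3.10 summits per 100 genes.

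Bound genes were spread over the amino acids. The 290 genes fell into 22 groups by the amino acid in the symbol, counting initiator methionine and selenocysteine apart, and 11 groups had a bound gene. Valine (2 of 15), tyrosine (2 of 10) and histidine (2 of 5) had 2 each, and the histidine pair shared 1 peak. Leucine (22 genes), glycine (20), glutamate (19), lysine (19), alanine (17), glutamine (12), isoleucine (11) and tryptophan (8) had 1 each. No group had more than 2.

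The 11 groups without a bound gene held 132 genes. They were arginine (26 genes, the largest group), serine (20), proline (17), threonine (17), aspartate (14), asparagine (10), phenylalanine (8), cysteine (7), methionine (6), initiator methionine (6) and selenocysteine (1). Of these, aspartate had bound genes in replicate 1, phenylalanine in replicate 2, and proline a different gene in each replicate. Of 45 anticodons, 12 had a bound gene. With counts of 0 to 2 a group, no order of amino acids can be read.

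**Figure D5:**
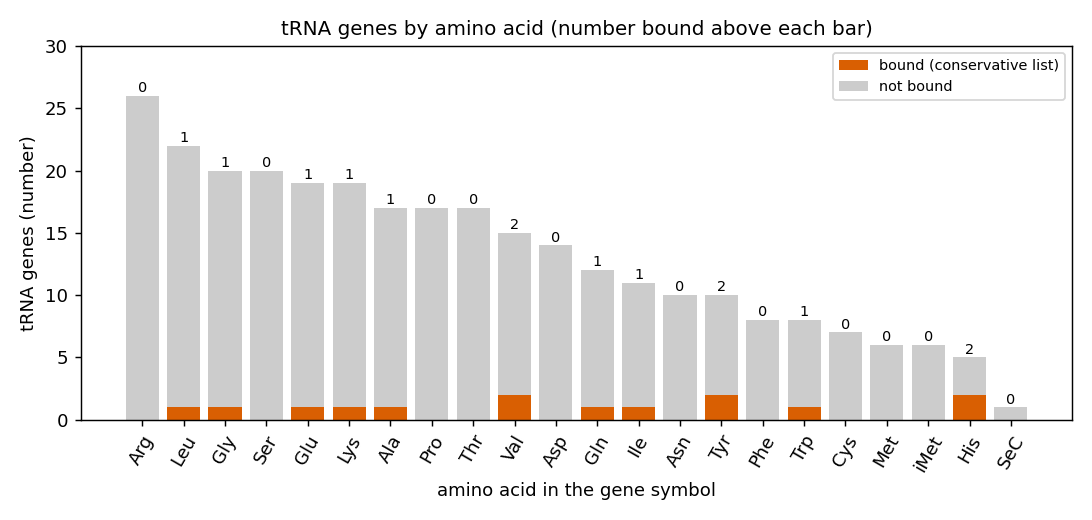
Number of nuclear tRNA genes by the amino acid in the symbol, with bound genes of the conservative list in orange and the others in grey, and the number bound above each bar. No amino acid had more than 2 bound genes, and arginine, with 26 genes, had 0.

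Clusters of tRNA genes and single genes had bound shares with overlapping intervals. Runs of genes with at most 5000 bp between neighbours gave 144 loci, of which 11 were bound (7.64%, interval 4.32% to 13.2%). This interval held the 10.6% of all genes, though a locus of several tRNA genes has several windows. Among 76 single genes 5 were bound (6.58%), among 52 clusters of 2 or 3 genes 4 were bound, and among 16 clusters of 4 or more 2 were bound. Per gene, clusters of 2 or more had 9 of 214 bound (4.21%, interval 2.23% to 7.80%), against 6.58% (interval 2.84% to 14.5%) for single genes.

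Per gene, clusters of 4 or more had 3 of 96 bound (3.12%, interval 1.07% to 8.79%), and per locus 2 of 16 (12.5%), against 4.83% of all tRNA genes and 7.64% of all loci. The largest by count lay at chr2R:6161535-6171759, with 11 genes for arginine, asparagine, isoleucine and lysine, 0 of them bound and the nearest summit 3913 bp away. A cluster of 11 genes for alanine, proline, threonine and valine at chr3R:17617761-17631750 was 68905 bp from a summit. Of 3 clusters with 7 genes, the isoleucine and leucine cluster at chr2R:13430282-13432794 had the 1 weak Ile-AAT-1-3 peak. The glutamate and initiator methionine cluster at chr2R:19725620-19728958 was 77161 bp from a summit, and the arginine and serine cluster at chrX:14014814-14017284 was 18596 bp from one. By arm, 2R had 5 bound of 98, 3R 4 of 79, 3L 3 of 48, 2L 1 of 41 and X 1 of 24, with no tRNA gene on arm 4.

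The bound share was higher among tRNA genes near a coding promoter. Of the 79 tRNA genes with a coding TSS within 1000 bp, 9 were bound (11.4%, interval 6.11% to 20.3%), against 5 of the other 211 (2.37%, interval 1.02% to 5.43%). These intervals did not overlap, but they take no account of peaks shared by neighbouring tRNA genes. No test of the difference was made. The nearest coding TSS was at a median of 648 bp from bound tRNA genes and 3031 bp from the others. Seen from the coding side, 59 coding genes had a TSS within 1000 bp of a tRNA TSS. Of these, 12 were bound (20.3%), against 11.8% of all coding genes. The interval of the 59 genes overlapped that of all coding genes (11.3% to 12.4%). They were picked through any TSS, and a gene with several TSSs has more windows in which to be picked and bound. The part of this in the difference was not tested. The windows of neighbouring genes overlap, so these counts share peaks.

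Other properties of the genes gave overlapping intervals. Inside the span of a coding gene 8 of 134 tRNA genes were bound (5.97%), against 6 of 156 outside (3.85%). Of 16 tRNA genes with an intron 2 were bound, both of them tyrosine genes, against 12 of 274 without. Of 238 genes with an identical copy elsewhere 9 were bound (3.78%, interval 2.00% to 7.03%), against 5 of 52 with a sequence of their own (9.62%, interval 4.18% to 20.6%).

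Sets of identical genes held both bound and unbound copies. The 290 genes had 95 distinct sequences, and the largest set of identical copies had 13 members. Of the 13 identical Gly-GCC genes 1 was bound, with nearest summits from 404 bp to 44916 bp over the set. Of 11 identical Ala-AGC genes 1 was bound, of 9 Glu-CTC genes 1, of 9 Ile-AAT genes 1, of 6 Trp-CCA genes 1, of 6 Val-CAC genes 1 and of 2 Val-TAC genes 1. Of 5 identical His-GTG genes 2 were bound, through 1 peak. Some unbound copies stood just past the 1000 bp edge from the same summit as a bound copy. Among them were Val-TAC-1-2 at 1237 bp, Glu-CTC-3-2 at 1190 bp and His-GTG-1-1 at 1191 bp. For these the split between copies reflects the window edge. The sets were defined by identical gene sequence, so bound and unbound copies had the same sequence by construction. Whether the gene sequence plays a part in binding was not tested.

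The internal promoter boxes were searched on the gene strand. The B box, GGTTCGA followed by NNCC, was found in 145 of the 290 tRNA genes, and 7 of those 145 genes and 7 of the 145 without it were bound. The A box, TGGC followed by NN and AGNGG, was found in 16.2% of genes, with 1 bound of 47 and 13 bound of the other 243. Looser forms were written after the strict counts were seen. The looser A box is TAG or TGG, then C or T, 2 bases of any kind, A, then A or G, a spacer of 1 to 4 bases and GG, within the first 30 bases. The looser B box is GATC or GTTC, then A or G, then A, 2 bases of any kind and C. They were found in 92.4% and 99.7% of genes, and in 11 and 14 of the 14 bound genes. Both looser boxes were found together in 11 of the 14 bound genes and in 267 of all 290.

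At the summits themselves the sequence was AT-rich. Mean GC content over the 201 bases was 33.6 ± 3.77% at the 12 peaks (SD over peaks), against 35.7 ± 6.98% over the 3260 conservative summits on the arms. tRNA genes had 58.1 ± 4.34%. TAATTA, a homeodomain core, lay within 100 bp of 6 of the 12 summits (interval 25.4% to 74.6%), against 16.5% of all conservative summits (interval 15.2% to 17.8%). These were the peaks of Lys-TTT-1-1 (signal 128), Gln-TTG-2-1 (82.3), Trp-CCA-2-2 (80.2), Ala-AGC-2-1 (79.3), His-GTG-1-3 (79.1) and Val-CAC-2-5 (75.9), and 3 of the 6 are printed above. The peaks without the word had signals of 318, 215, 165, 114, 81.5 and 9.08. The median of the list was 110, so most peaks with TAATTA were among the weaker ones. CACTG lay at 5 of 12 (41.7%, against 52.9%) and TATAAA at 5 of 12 (41.7%, against 1174 of all 3260), with intervals that held the share of all summits. All 3 words were searched on both strands, a summit was counted once per word, and TAATTA and TATAAA can share bases. The difference in TAATTA rests on 12 peaks and was not tested.

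The genes that make and process tRNA were read from a list of 39 names, of which 34 distinct genes matched the annotation. Of the 34, 4 were bound (11.8%), against 10.6% of all genes. Bdp1, a subunit of TFIIIB, had a peak of signal 309 at -86 bp, and Brf, another TFIIIB subunit, had one of 245 at -205 bp, each bound in both replicates. Polr3E, a subunit of RNA polymerase III, had one of 152 at -252 bp, bound in replicate 1 and not in replicate 2. Pbp95, a subunit of the complex that binds snRNA promoters, had one of 67.1 at -524 bp, bound in neither replicate's own list. RNaseZ, which trims the 3′ end of tRNA precursors, was bound in replicate 1 only. The rest were not bound in the conservative list, among them the large polymerase subunits Polr3A and Polr3B, Tbp, Trf, and Maf1, a repressor of RNA polymerase III.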

How the data were processed

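ChIP-seq peak lists of 2 biological replicates from 1 group were used, on build dm6 per the labels. The deposited signal value of each peak and the deposited −log10 of its IDR were made by the authors; no source used here named the aligner, the peak caller or the depth in reads. Summits were start plus offset. The ranked series list behind the conservative list was found by matching its peaks at IDR 0.01 or below to the thresholded lists. Another 16 columns of replicate values in the 2 series ranked lists were not used.

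Genes came from Ensembl release 115 without transposable elements, on 6 arms. A gene was bound with a summit within 1000 bp of any TSS; shared peaks were counted once. Lists were compared by overlap of at least 1 bp. Clusters joined tRNA genes at most 5000 bp apart. Words were counted within 100 bp of summits, and 36-base and 50-base words were checked for single occurrence in the genome on both strands. Shares carry Wilson intervals at 95%. No test of a difference was run. Named genes were all bound tRNA genes, the 5 on either side of the window edge, the 5 largest clusters, the genes nearest to these summits, and bound members of the polymerase III list. The genes found in 1 replicate only, RNaseZ and the unbound pathway genes were named after their values were seen, and so were the looser box forms. Members, lists and settings were chosen with earlier results of these data known. Alternatives were other lists, windows, IDR thresholds, cluster gaps and peak intervals. Python 3.11.15, numpy 2.4.6, pandas 2.3.3 and scipy 1.17.1 were used, and the gene assignment and word counts were tested on simulated data.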

Additional observations from a re-analysis of the deposited data

How the results depend on the processing

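The conservative list gave 14 bound tRNA genes, 12 peaks, 11 bound loci and 2 genes with a summit near the body. Single replicates gave 10 to 12 genes, 9 to 10 peaks, 8 to 10 loci and 0 to 3 genes near the body. The pooled list (13 genes), IDR at most 0.05 (20 genes), peak intervals (15 genes) and all 3 other cluster gaps (11 loci each) kept those counts within 1.5 times. At IDR at most 0.05, 6.90% of tRNA genes and 14.4% of all genes were bound. The stronger part of the conservative list, 1630 peaks, gave 6 genes, 5 peaks, 5 loci and 0 near the body, with 6.61% of all genes bound. IDR at most 0.001 gave 7, 6, 6 and 0, with 6.87% of all genes. Keeping only summits whose nearest TSS is that of a tRNA gene gave 9, 7, 7 and 1. A window of 250 bp gave 5 genes, 5 peaks and 5 loci, and one of 500 bp gave 8, 7 and 7. A window of 2000 bp gave 31, 23 and 18, and one of 5000 bp gave 61, 49 and 31. Near the body, peak intervals gave 7 genes, distances of 0 bp and 100 bp gave 0, and 500 bp gave 8. These settings keep fewer peaks or admit wider windows by construction. In each list the tRNA share lay below that of all genes, and so it did among genes with a relaxed peak (8.14%, 14 of 172, against 14.9%). Against genes with one TSS the tRNA share was also lower in each list but the relaxed list of replicate 2 (78.3% against 78.0%). No paired analysis was possible because there is 1 group. Read depth is unknown, so a site not listed may have been below detection.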
